A study of Mus musculus with 10 samples.

Results

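Pdx1, Nkx6-1, Mafa and Mnx1 are the transcription factors that islet biologists most often use to mark the beta lineage. They were taken by symbol from the matrices of a single-cell RNA sequencing study of the fetal mouse pancreas. All 4 were listed in each of them, among 27716 genes common to all matrices. They were followed from ductal and acinar cells through Ngn3+ and Fev+ endocrine progenitors to the hormone cells, and over 3 embryonic stages.

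The 8 libraries were made with 10x Chromium kits. Of these, 4 were v1 libraries of all live cells of wild-type Swiss Webster pancreata, at E12.5, at E14.5 in 2 batches and at E17.5. A further 3, 1 for each of those stages, were v2 libraries of Swiss Webster pancreata from which cells carrying CD140a, the mesenchymal receptor Pdgfra, had been removed by sorting. The last was an E14.5 v2 library of Fev-Cre;ROSA26mTmG pancreata on a C57BL/6J background, in which cells with a history of Fev expression carry GFP, and in which GFP+ and TdTomato+/GFP- cells had been sorted. Each library was 1 suspension of pooled pancreata, the 2 wells of v2 E17.5 came from the same suspension and were summed, and dissociation took 10 min at E12.5, 15 min at E14.5 and 30 min at E17.5. Stage, litter and dissociation time therefore cannot be told apart within a kit. The v1 E12.5 and v1 E17.5 libraries belong to the same batch as the second v1 E14.5 library, and the v2 stages were prepared on different days.

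Pdx1 is a homeodomain factor that is required for the pancreas to form, is carried by the early epithelium and is later kept mainly in beta cells, where it activates insulin genes. Nkx6-1 is a homeodomain repressor of the trunk epithelium that is later kept in beta cells and holds alpha genes off. Mnx1 is a homeodomain factor needed for beta cell differentiation, and Mafa is a basic leucine zipper activator of insulin genes that rises late, as beta cells mature. Ngn3, encoded by Neurog3, starts endocrine differentiation, and Fev is a factor of the progenitors that follow.

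On the GRCm38 build, 3 of the genes lie on chromosome 5. Pdx1 spans chr5:147269959-147275848 on the plus strand in 2 exon blocks. Nkx6-1 spans chr5:101658139-101664996 on the minus strand in 3 exon blocks. Mnx1 spans chr5:29473034-29478470 on the minus strand in 3 exon blocks. Mafa is a gene of 1 exon on chromosome 15, chr15:75745490-75748228, minus strand.

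The stretches before the Pdx1 and Mnx1 transcripts are shown because these were the members that differed between Ngn3+ and Fev+ cells. They are RefSeq promoter sequence of GRCm38.p6, 5′ to 3′ on the gene's strand, and only bases ahead of any annotated exon are printed: 112 bases for Pdx1 (chr5:147269847-147269958, +) and 250 for Mnx1 (chr5:29478471-29478720, -). Capitals mark E-boxes, the letters CANNTG that basic helix-loop-helix factors such as Neurog3 and Neurod1 can bind, and this motif reads the same on both strands.
Pdx1: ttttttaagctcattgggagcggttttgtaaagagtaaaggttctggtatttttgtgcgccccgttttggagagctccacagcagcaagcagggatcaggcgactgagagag
Mnx1: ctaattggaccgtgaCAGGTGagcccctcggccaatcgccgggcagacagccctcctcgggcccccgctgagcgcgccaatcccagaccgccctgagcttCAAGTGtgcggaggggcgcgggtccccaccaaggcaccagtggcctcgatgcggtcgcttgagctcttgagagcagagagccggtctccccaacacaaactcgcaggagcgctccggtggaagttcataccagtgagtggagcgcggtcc
The Mnx1 stretch holds 2 E-boxes, starting 235 and 150 bases before the RefSeq transcript start, and the printed Pdx1 stretch holds none. The rest of the RefSeq window of 250 bases for Pdx1 lies inside the gene span given above and holds 3 matches, 128, 122 and 51 bases before the RefSeq start. The Nkx6-1 window lies wholly inside its gene span and holds 0, so that no sequence ahead of that gene was searched. Of 32851 promoters of this length, 66.2% hold at least 1 E-box, so a match by itself is common.

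Cells were grouped by clustering within each data set, with 32 listed islet genes held out, the members among them, and a cluster was named only from marker genes listed for each class. The classes are called X-like for that reason, and they held 6736 acinar-like, 6053 ductal-like, 1270 Ngn3+-like, 1256 Fev+-like, 1669 alpha-like, 1345 beta-like, 290 delta-like and 310 epsilon-like cells. Each class was highest in its defining gene: Neurog3 averaged 4936 CPM (unique molecular identifiers, UMIs, of a gene for each 1000000 UMIs) in Ngn3+-like cells, Fev 1206 CPM in Fev+-like cells and Gcg 64589 CPM in alpha-like cells. Of the 6 Fev+ markers only 3 were highest in the Fev+-like class, and Fev itself ran from 169 CPM in v2 E17.5 to 2355 CPM in the first v1 E14.5 batch. A library entered a comparison of a class where it held 20 or more of its cells, which left beta-like cells in 6 libraries, none at E12.5, delta-like cells in 4 and epsilon-like cells in 3. The matrices held between 15671934 and 127151679 UMIs, with medians of 2952 to 11783 UMIs in the barcodes kept, and haemoglobin genes took 60.9% of all UMIs in v1 E17.5. Pairs of libraries shared at most 155 cell barcodes, and at most 1.785% of the smaller library's barcodes.

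From here on, levels are CPM of a class in a library computed outside the genes of hormones and digestive enzymes, since those genes took 10.3% to 45.5% of the UMIs of beta-like cells. In these sums a change in every cell and a change in the share of cells that express a gene cannot be told apart. Differences between classes were tested within libraries on the log2 scale, and a gene was called where the adjusted p-value was below 0.05 and the change at least 2-fold. The tests of classes and of stages used totals of all genes with TMM normalisation. Their log2 differences therefore need not match the levels printed beside them. Cells of other types gave a background level, whose source was not tested. In mesenchymal cells Pdx1 averaged 5.67 CPM and reached 21.6 CPM, Nkx6-1 averaged 4.74 CPM and reached 19.9 CPM, both highest in v2 E12.5, and Mnx1 reached 1.36 CPM. Erythroid cells reached 27.9 CPM of Pdx1 and 40.3 CPM of Nkx6-1.

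In the exocrine and trunk epithelium, Nkx6-1 was higher in ductal-like cells throughout, while the difference in Pdx1 was not called. Nkx6-1 in ductal-like cells ran from 31.6 CPM to 275 CPM over the 8 libraries, with a median of 178 CPM. In acinar-like cells it ran from 5.02 CPM to 103 CPM, with a median of 38.9 CPM. Ductal-like cells were higher in 8 of 8 libraries, by 1.75 ± 0.14 (log2, SE), adjusted p = 5.80e-07. Pdx1 averaged 109 ± 50.9 CPM in ductal-like cells and 91.1 ± 58.7 CPM in acinar-like cells (SD, n = 8 libraries), a difference of -0.06 ± 0.22 on the log2 scale that did not pass (adjusted p = 0.868), with ductal-like cells higher in 5 of 8 libraries. The E17.5 libraries stood apart from this, with 70.8 CPM against 25.2 CPM in v2 and 75.7 CPM, from 45 UMIs, against 0 UMIs in v1, and in the other 6 libraries the log2 ratio lay between -0.23 and 0.46. Mnx1 was low in both, with means of 1.07 CPM and 5.42 CPM, and fell by 1.86 ± 0.48 on the log2 scale in ductal-like against acinar-like cells (adjusted p = 0.00925), lower in 6 of 8 libraries, the other 2 having no Mnx1 UMI in either class. Among the 6, Fev-Cre was nearly level, with 5.76 CPM of Mnx1 against 5.79 CPM. Without v2 E12.5 the adjusted p of Mnx1 was 0.0591. So 2 of the 3 members that passed the low-count filter were called, against 16.7% of 12340 genes tested. The acinar-like class of v2 E12.5 held 1638 cells, while a gate on marker UMIs in single cells put only 50 cells of that library there.

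**Figure D1:**
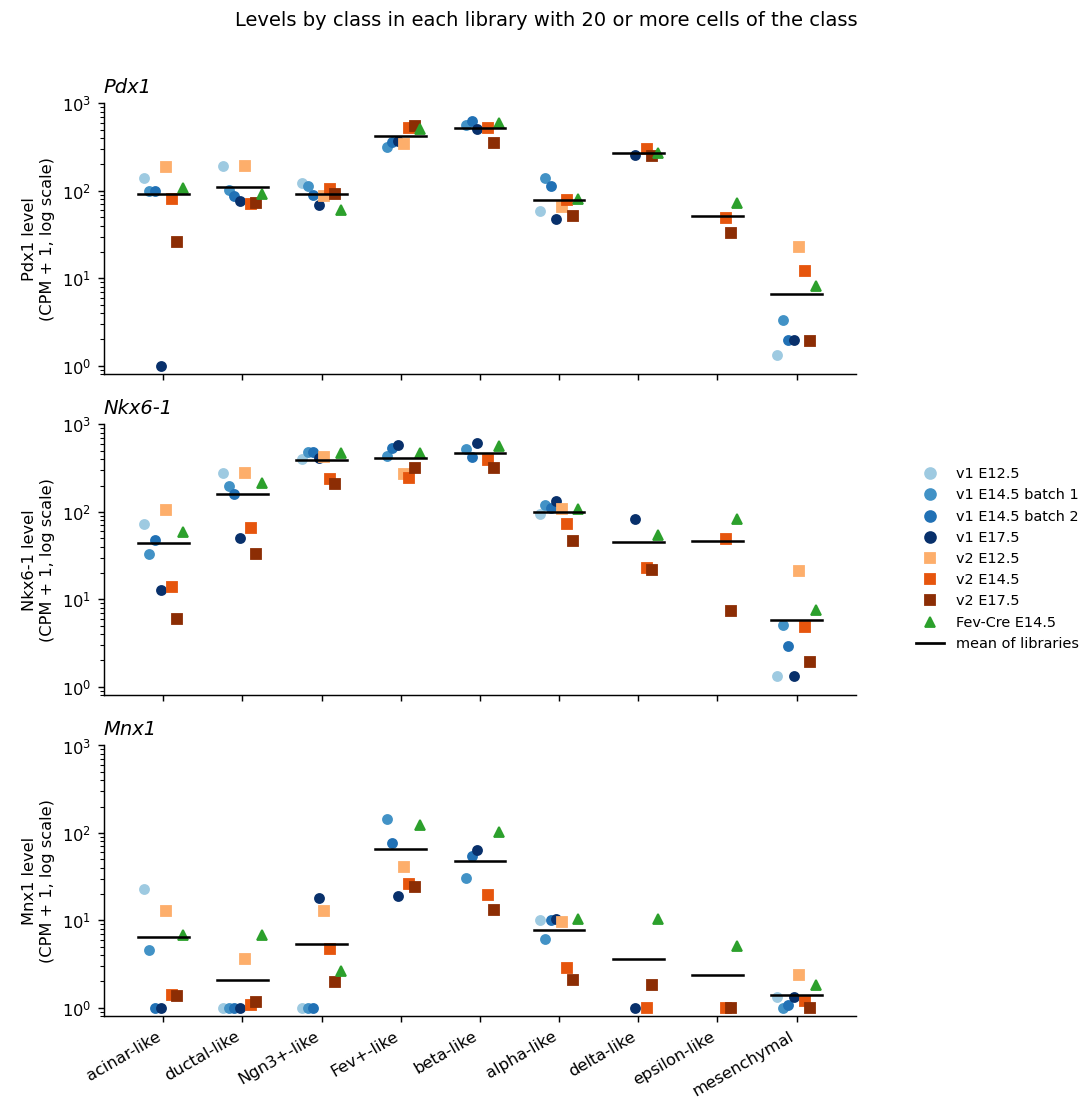
Level of Pdx1, Nkx6-1 and Mnx1 (CPM + 1, log scale) in each class, 1 point a library with 20 or more cells of the class, bars at the mean of the libraries. Pdx1 steps up between Ngn3+-like cells (59.7 to 123 CPM) and Fev+-like cells (316 to 549 CPM), Nkx6-1 is already at 206 to 481 CPM in Ngn3+-like cells, and both are at most 139 CPM in all alpha-like points.

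With entry into the endocrine lineage, Nkx6-1 rose, and no difference in Pdx1 passed the test. In Ngn3+-like cells Nkx6-1 ran from 206 CPM in v2 E17.5 to 481 CPM in the second v1 E14.5 batch, with a median of 417 CPM. It was above ductal-like cells in 8 of 8 libraries, by 1.47 ± 0.21 on the log2 scale (adjusted p = 1.35e-05). The log2 ratio of levels was unequal over stages, at 0.56 (v1) and 0.62 (v2) at E12.5, 1.15 to 1.86 at E14.5, and 3.07 (v1) and 2.71 (v2) at E17.5. Pdx1 in Ngn3+-like cells ran from 59.7 CPM to 123 CPM, with a median of 89.6 CPM, and overlapped ductal-like cells, the difference being -0.21 ± 0.18 (adjusted p = 0.336). Ngn3+-like cells were higher in Pdx1 in 4 libraries and lower in 4. Mnx1 was at 0 UMIs in Ngn3+-like cells of 3 libraries and reached 17.1 CPM, from 1 UMI, in v1 E17.5. Its difference from ductal-like cells, 1.83 ± 0.80, missed the threshold (adjusted p = 0.0651). Thus 1 of 3 members was called, where 30.3% of 10523 genes were. Of the other islet transcription factors, a list of 20, 14 of the 19 that passed the filter were called higher in Ngn3+-like cells and 1, Glis3, was called lower, with a median log2 difference of 3.74 over the 19 against -0.04 over all genes.

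Between Ngn3+-like and Fev+-like cells the pattern was the reverse. Pdx1 in Fev+-like cells was 316 CPM and 357 CPM in the v1 E14.5 batches and 369 CPM at v1 E17.5. It was 338 CPM, 529 CPM and 549 CPM in the v2 libraries by rising stage, and 504 CPM in the Fev-Cre library. Every one of these lay above every Ngn3+-like library, and the rise was 2.20 ± 0.14 on the log2 scale (adjusted p = 1.61e-10). Cells with Fev were not all in the class. In the Fev-Cre library, 406 cells of an unnamed cluster (cluster 3) held 620 CPM of Fev, of all UMIs, with 136 CPM of Pdx1 and 215 CPM of Nkx6-1, and 121 cells of another (cluster 8) held 1144 CPM of Fev with 215 CPM of Pdx1 and 559 CPM of Nkx6-1, beside 504 CPM and 473 CPM in its 409 Fev+-like cells. A gate on marker UMIs in single cells, which put 1157 cells of that library in Fev+, gave a smaller rise of Pdx1, 1.56. Mnx1 was higher in 7 of 7 libraries as well, from a mean of 5.05 ± 6.74 CPM to 63.8 ± 51.1 CPM (SD, n = 7), by 3.49 ± 0.40 on the log2 scale (adjusted p = 5.24e-07). The Mnx1 level of Fev+-like cells ran from 18.0 CPM (2 UMIs, v1 E17.5) to 144 CPM in the first v1 E14.5 batch. The v1 E17.5 library was nearly level, with 17.1 CPM, from 1 UMI, in its Ngn3+-like cells. Nkx6-1 averaged 387 ± 117 CPM before and 407 ± 133 CPM after, a difference of -0.07 ± 0.13 that did not pass (adjusted p = 0.691), higher in 5 of 7 libraries. Here 2 of 3 members were called, against 18.4% of 9568 genes. Without v2 E17.5, where Fev was lowest, the rises were 2.17 for Pdx1 and 3.40 for Mnx1. Among the other islet factors, 7 of 19 were called higher in Fev+-like cells, including Pax6, Isl1 and Mlxipl, and 3 were called lower, Nkx2-2, Insm1 and Pax4. Of the 8 beta cell function genes 5 passed the filter and 4 were called higher, Slc30a8, Pcsk1, Abcc8 and Gjd2, which serve insulin granules, prohormone cleavage, the potassium channel and cell coupling.

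**Figure D2:**
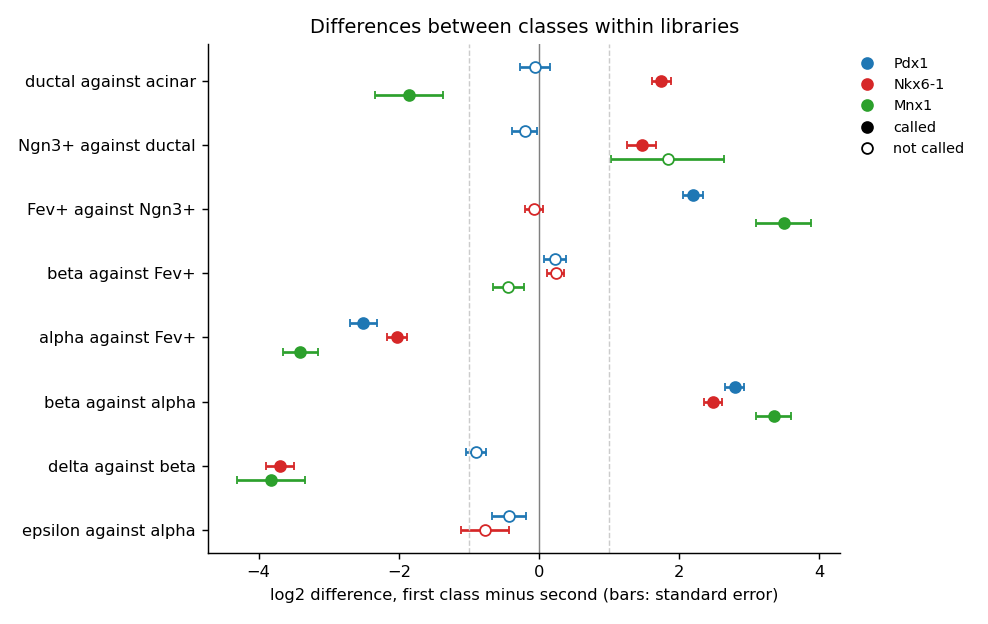
Differences between classes within libraries (log2, first class minus second, points with standard errors), filled where the gene was called and open where it was not, dashed lines at 2-fold. Nkx6-1 is called in the Ngn3+ step, Pdx1 and Mnx1 in the Fev+ step, none in beta against Fev+, and all 3 in the comparisons of alpha with Fev+ and beta.

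No member that passed the filter was called between Fev+-like and beta-like cells. Pdx1 in beta-like cells was 350 CPM at the lowest, in v2 E17.5, and 621 CPM at the highest, in the second v1 E14.5 batch, with a median of 542 CPM. The difference from Fev+-like cells was 0.23 ± 0.15 (adjusted p = 0.290), higher in 4 of 6 libraries. Without v2 E17.5 it was 0.49 ± 0.15, which passed on p (adjusted p = 0.0305) but fell short of 2-fold, and at double clustering resolution it was 0.55. The beta-like classes were not alike between data sets, with Ins2 at 48815 CPM of all UMIs in the Fev-Cre library and 263950 CPM in v2 E17.5, and 427 of the 558 Fev-Cre cells lay in cluster 1, whose 10 leading genes do not include Ins1 or Ins2. Without the Fev-Cre library Pdx1 differed by 0.30. Nkx6-1 ran from 318 CPM to 619 CPM, with a median of 471 CPM, and differed by 0.24 ± 0.12 (adjusted p = 0.177), higher in 5 of 6, and by 0.36 without the second v1 E14.5 batch. Mnx1 averaged 46.4 ± 33.5 CPM in beta-like and 67.7 ± 54.8 CPM in Fev+-like cells of the same libraries (SD, n = 6) and differed by -0.44 ± 0.22 (adjusted p = 0.155), lower in beta-like cells in 5 of 6. Its direction turned at double clustering resolution (0.18 ± 0.20) and without doublet removal (0.13 ± 0.20). An unnamed v1 cluster (cluster 2) of 188 cells entered neither class. In the first v1 E14.5 batch its cells held 464 CPM of Fev and 15677 CPM of Ins2, of all UMIs. Its pooled Pdx1 was 649 CPM, beside 337 CPM in Fev+-like and 556 CPM in beta-like cells of v1, and these differences were not tested. In the comparison of beta-like with Fev+-like cells 8.89% of 8311 genes were called. Genes around the members did move: Pax4, a repressor of the progenitor stage, fell by 3.29 ± 0.41 on the log2 scale (adjusted p = 1.20e-05), Rfx6 by 1.13 and St18 by 1.19, and 0 of the 19 islet factors that passed were called higher in beta-like cells. Of the 6 beta cell function genes that passed, Slc30a8, the zinc transporter of insulin granules, rose by 2.18 ± 0.35 (adjusted p = 1.64e-04), and Ucn3, a peptide of maturing beta cells, rose by 3.40 ± 0.36 (adjusted p = 2.59e-06).

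Alpha-like cells stood apart from both. Pdx1 in alpha-like cells ran from 47.1 CPM to 139 CPM (median 70.5 CPM, 8 libraries), and Nkx6-1 from 45.9 CPM to 132 CPM (median 107 CPM), both under every Fev+-like and beta-like library. Against Fev+-like cells, Pdx1 fell by 2.51 ± 0.19, Nkx6-1 by 2.03 ± 0.14 and Mnx1 by 3.41 ± 0.25 on the log2 scale, each lower in 7 of 7 libraries (adjusted p = 1.07e-07, 4.44e-08 and 6.14e-08). These were 3 of 3 members that passed, where 8.20% of 9447 genes were called. The Fev+-like side left out the 406 Fev-carrying cells of unnamed Fev-Cre cluster 3. Their Pdx1, 136 CPM, lay within the alpha-like range, and their Nkx6-1, 215 CPM, lay above it. Against alpha-like cells, beta-like cells were higher in Pdx1 by 2.79 ± 0.13, in Nkx6-1 by 2.49 ± 0.13 and in Mnx1 by 3.35 ± 0.25, in 6 of 6 libraries each (adjusted p = 9.02e-14, 4.28e-13 and 3.19e-10), where 9.62% of 8307 genes were called. Both comparisons take the alpha-like cells of the same 6 libraries, and the first takes v2 E12.5 as well. The lowest alpha-like levels of Pdx1 and Nkx6-1 lay above the highest mesenchymal and erythroid ones. Of the other islet factors, Mlxipl (2.82 ± 0.16, adjusted p = 3.05e-12) and Glis3 (2.48 ± 0.29, adjusted p = 3.26e-07) were called higher in beta-like cells. Isl1 fell by 1.27 ± 0.19 (adjusted p = 1.04e-05), and 18 of the 20 passed the filter. Among the beta cell function genes, Pcsk1 was higher by 2.01 ± 0.16, Ucn3 by 2.23 ± 0.44 and Gjd2 by 1.78 ± 0.17 (adjusted p = 1.08e-09, 4.14e-04 and 1.29e-08), and the other 3 that passed were not called.

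Delta-like cells kept part of the Pdx1 level and little of the others. Pdx1 was 251 CPM in v2 E17.5, 254 CPM in v1 E17.5, 271 CPM in Fev-Cre and 299 CPM in v2 E14.5, with a narrow spread. These lay below beta-like cells in 4 of 4 libraries, by 0.90 ± 0.14 on the log2 scale, which passed on p (adjusted p = 1.93e-05) but fell short of 2-fold. Without v2 E17.5 it fell by 1.01 and was called. Nkx6-1 was 20.7 CPM, 81.6 CPM, 53.6 CPM and 21.9 CPM in the same order. It fell by 3.70 ± 0.20 against beta-like cells (adjusted p = 1.79e-13), and Mnx1, at 0 UMIs in 2 of the 4 libraries, was called lower as well (adjusted p = 1.24e-06), where 10.2% of 7327 genes were called. Epsilon-like cells, the ghrelin cells, had the lowest mean Pdx1 of the endocrine classes. Their levels were 31.5 CPM, 47.9 CPM and 72.2 CPM, the last in Fev-Cre, where Ngn3+-like cells were lower, at 59.7 CPM. These levels lay below alpha-like cells in 3 of 3 libraries. Neither Pdx1 (-0.42 ± 0.25, adjusted p = 0.430) nor Nkx6-1 (-0.78 ± 0.34, adjusted p = 0.298) was called, with 2.06% of 9234 genes called. Without the Fev-Cre library Nkx6-1 gave -1.28 (adjusted p = 0.0429). That fit held only v2 E14.5 and v2 E17.5, the latter with 2 UMIs of Nkx6-1 in epsilon-like cells. It called 808 genes, against 190 in the main fit.

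By mean level the order for Pdx1 was beta-like, Fev+-like, delta-like, ductal-like, Ngn3+-like, acinar-like, alpha-like and epsilon-like. These means are over different libraries, 8 for acinar-like, ductal-like, Ngn3+-like and alpha-like, 7 for Fev+-like, 6 for beta-like, 4 for delta-like and 3 for epsilon-like cells. From ductal-like cells to the end of the order the classes overlap in range. Of the neighbours tested in that order, no difference passed between beta-like and Fev+-like, ductal-like and Ngn3+-like, or alpha-like and epsilon-like cells. For Nkx6-1 the order was beta-like, Fev+-like, Ngn3+-like, ductal-like, alpha-like, epsilon-like, delta-like and acinar-like. No difference passed between beta-like and Fev+-like, Fev+-like and Ngn3+-like, or alpha-like and epsilon-like cells, and the step from Ngn3+-like to ductal-like cells did pass. For Mnx1, Fev+-like and beta-like cells came first and the other 6 classes averaged at most 6.73 CPM. Neighbours not named here were not tested against each other. Clusters with a high score for listed cycling genes were kept as proliferating classes of their own, with levels that were not tested. Clusters below that cut stayed in the plain classes, some with cell cycle genes in the lead. In v2 an acinar-like cluster of 751 cells had Top2a and Cdk1 among its 10 leading genes, and another of 970 cells had Cdc6 and Rrm2. Pdx1 averaged 118 ± 49.4 CPM in 5 libraries of proliferating ductal-like cells and 90.9 ± 39.9 CPM in 4 of proliferating acinar-like cells, and Nkx6-1 averaged 183 ± 121 CPM and 33.2 ± 31.7 CPM.

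Mafa was all but absent. Over 18929 cells of the 8 classes and 175728898 UMIs, 6 UMIs of Mafa were found, beside 22822 of Pdx1, 19434 of Nkx6-1 and 1513 of Mnx1. Of the 6, 3 lay among 576 beta-like cells of v2 E17.5, 2 among 558 beta-like cells of the Fev-Cre library and 1 among its 165 epsilon-like cells. That is 0.438 CPM and 0.477 CPM in the beta-like cells. No UMI was seen in acinar-like, ductal-like, Ngn3+-like, Fev+-like, alpha-like or delta-like cells of any library, and none in the mesenchymal cells. Mafa passed the low-count filter in no comparison, so no difference was testable at this depth.

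The share of cells with at least 1 UMI was higher on average in Fev+-like than in Ngn3+-like cells for Pdx1 and Mnx1 and about equal for Nkx6-1, and these shares were not tested. Cells were first thinned to 2000 UMIs in v1 and 3000 UMIs in v2 and Fev-Cre, since an unequal depth changes the share. The UMIs of hormone genes count in these totals and not in the levels. Pdx1 was found in 19.8 ± 4.41% of Ngn3+-like, 56.3 ± 15.0% of Fev+-like and 61.3 ± 14.8% of beta-like cells (SD over 7, 7 and 6 libraries). Nkx6-1 was found in 56.1 ± 12.46%, 56.2 ± 8.81% and 53.9 ± 19.3% of the same classes. The share of Mnx1 was 0.317 ± 0.525% in Ngn3+-like, 13.7 ± 9.50% in Fev+-like and 9.92 ± 7.14% in beta-like cells. In mesenchymal cells the shares were at most 2.23% for Pdx1 and 0.340% for Mnx1, with a mean of 0.802% for Nkx6-1. In Ngn3+-like cells of v2 E12.5, Mnx1 was found in 3 of 215 cells, 1.395% (exact 95% interval 0.289% to 4.02%), against 0.177% (0.0763% to 0.348%) of mesenchymal cells of that library, and in the other v2 and Fev-Cre libraries in at most 1 Ngn3+-like cell each. Without thinning Pdx1 was found in 90.5% of beta-like cells and Nkx6-1 in 85.1%.

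Cells holding both Pdx1 and Nkx6-1 after thinning made up 33.7 ± 11.6% of Fev+-like cells (20.97% to 55.5% over 7 libraries) and 33.5 ± 16.1% of beta-like cells (19.1% to 57.9% over 6). The share was 13.1 ± 1.89% in Ngn3+-like cells, 7.07 ± 7.96% in ductal-like cells and 2.73 ± 2.21% in alpha-like cells. It was highest in the Fev-Cre library in both Fev+-like and beta-like cells. In Fev+-like cells 6.91 ± 5.28% held 3 of the 4 members together, against 3.09 ± 5.24% of beta-like cells and 0% of Ngn3+-like cells. Within Fev+-like cells, those with Pdx1 had Nkx6-1 more often than those without, 59.6% against 50.8%, in 6 of 7 libraries (exact sign-flip permutation p = 0.03125, adjusted p = 0.1562 over 10 pairs of genes). Those with Nkx6-1 had Mnx1 more often, 16.8% against 9.87%, also in 6 of 7 libraries (exact permutation p = 0.03125, adjusted p = 0.1562). No pair of members passed the adjustment. In Fev+-like cells the difference in Nkx6-1 between cells with and without Pdx1 was 8.76 points, and with another thinning seed it was 1.82 points.

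**Figure D3:**
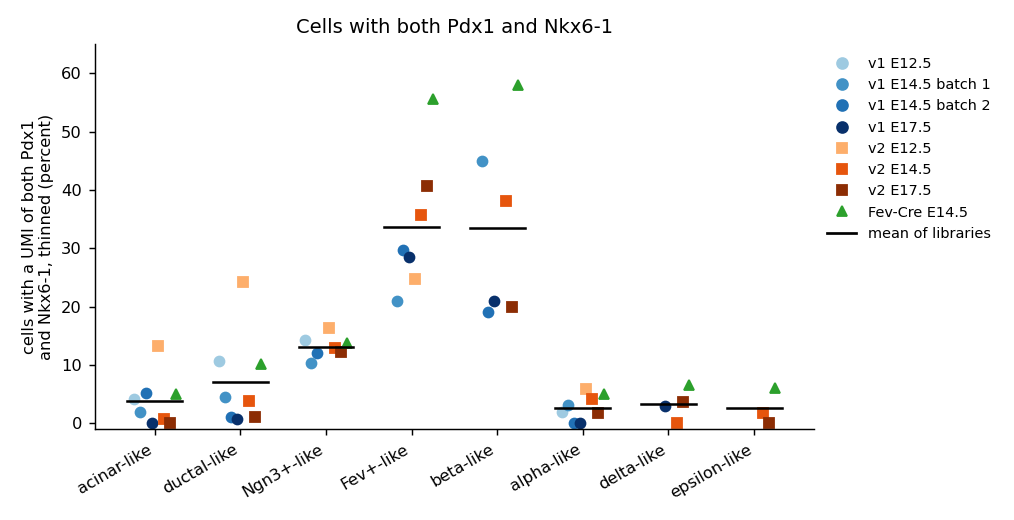
Percent of cells with a UMI of both Pdx1 and Nkx6-1 after thinning, 1 point a library with 20 or more thinned cells of the class, bars at the mean. Fev+-like cells lie between 20.97% and 55.5% and beta-like cells between 19.1% and 57.9%, and all alpha-like, delta-like and epsilon-like points lie at or below 6.52%.

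Within Fev+-like cells, a score that rises with Chgb and Chga, genes of hormone granules, and falls with Neurog3, Pax4, Runx1t1, Btbd17, Mfng and Gadd45a was cut into terciles. It is a range and not a set of cell types. Pdx1 was higher in the highest than in the lowest tercile in 6 of 6 libraries, by 0.36 ± 0.40 on the log2 scale (SD), and the smallest p that 6 libraries allow, 0.03125, was reached (exact permutation test, adjusted p = 0.09375). The difference was 1.09 in the first v1 E14.5 batch, where the level went from 207 CPM to 440 CPM of all UMIs, and 0.0036 in v2 E17.5. Mnx1 was higher in 5 of 6 libraries, by 0.68 ± 0.51 (exact permutation p = 0.0625, adjusted p = 0.09375), and Nkx6-1 moved by -0.09 ± 0.21 (exact permutation p = 0.406). None passed at 0.05 after adjustment over the 3 members.

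Within beta-like cells the order was the other way for 2 of the members. In the 3 libraries with 60 or more beta-like cells, the tercile with the highest share of insulin UMIs had less Pdx1, counted outside the insulin genes, than the tercile with the lowest. In v2 E14.5 it had 412 CPM against 594 CPM, in v2 E17.5 263 CPM against 479 CPM, and in Fev-Cre 453 CPM against 692 CPM, a mean log2 ratio of -0.67 ± 0.18 (SD, n = 3). The terciles were not alike between libraries: the median insulin share of the lowest was 13.7% in v2 E14.5, 20.1% in v2 E17.5 and 0.192% in Fev-Cre. Mnx1 gave -1.09 ± 0.22, with 72.8 CPM against 132 CPM in Fev-Cre, and Nkx6-1 gave -0.05 ± 0.14, with 286 CPM against 331 CPM in v2 E17.5 and 547 CPM against 528 CPM in Fev-Cre. With 3 libraries the exact permutation test cannot go below 0.25, which Pdx1 and Mnx1 reached (adjusted p = 0.375). The highest tercile also had more UMIs per cell, with medians of 27998 against 13418 in v2 E17.5, and the part of this in the result was not tested.

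**Figure D4:**
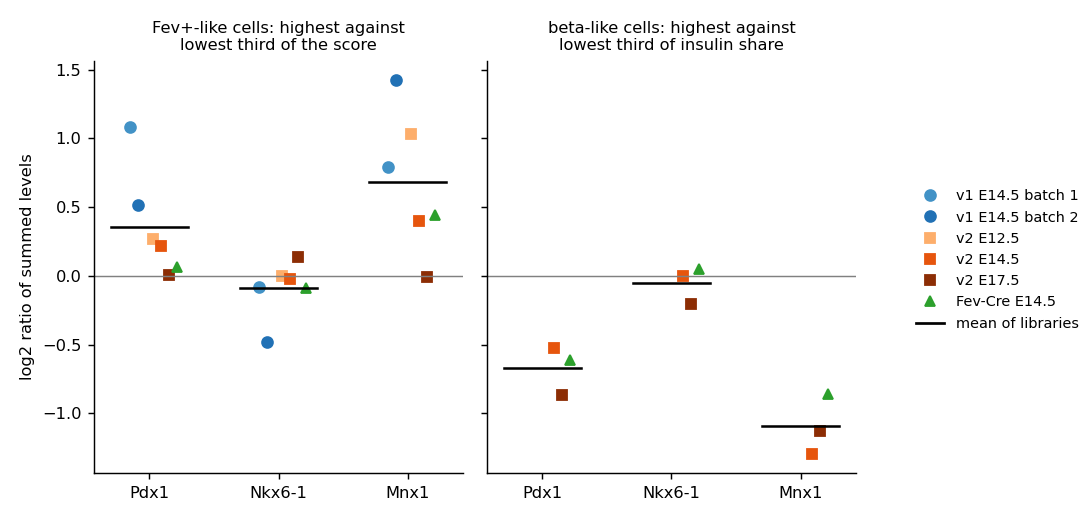
Log2 ratio of summed levels, highest against lowest tercile, of the score that rises with Chgb and Chga and falls with progenitor genes in Fev+-like cells (6 libraries) and of the insulin share in beta-like cells (3 libraries), 1 point a library, bars at the mean. Pdx1 lies above 0 in all 6 libraries on the left and below 0 in all 3 on the right, and Nkx6-1 has points on both sides of 0 in each panel.

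Over the stages, Nkx6-1 fell in ductal-like and acinar-like cells in both intervals. Pdx1 fell in the earlier interval in ductal-like cells and in the later interval in acinar-like cells, and no member that passed the filter was called in Ngn3+-like, Fev+-like, alpha-like or beta-like cells. Mnx1 and Mafa did not pass the filter in ductal-like cells. All these calls rest on kit as a term: without it none passed (adjusted p = 0.0700 to 0.393). In ductal-like cells Nkx6-1 was 275 CPM at E12.5 in both kits. At E14.5 it was 196 CPM and 159 CPM in the v1 batches and 64.9 CPM in v2, and at E17.5 it was 48.8 CPM in v1 and 31.6 CPM in v2. The stages did not overlap within a kit. The fall was 1.35 ± 0.30 on the log2 scale from E12.5 to E14.5 (adjusted p = 0.0443), and from E14.5 to E17.5 it fell by 1.42 ± 0.32 (adjusted p = 0.0216). Pdx1 was 190 CPM and 189 CPM at E12.5, 101 CPM, 86.5 CPM and 69.2 CPM at E14.5, and 75.7 CPM and 70.8 CPM at E17.5. It fell by 1.24 ± 0.23 over the first interval (adjusted p = 0.0149) and differed by -0.02 ± 0.23 over the second (adjusted p = 0.980). In the first interval 1.27% of 8995 genes were called and both members that passed the filter were among them, and in the second 3.76% were called and 1 of 2 members. The Fev-Cre library at E14.5, which did not enter these fits, had 90.0 CPM of Pdx1 and 213 CPM of Nkx6-1 in ductal-like cells. With it added, neither fall from E12.5 to E14.5 passed (adjusted p = 0.0537 for Pdx1 and 0.483 for Nkx6-1). Without v2 E12.5 neither fall was called (adjusted p = 0.638 and 0.857), nor without v2 E14.5 (adjusted p = 0.189 and 0.414), and without v1 E12.5 Pdx1 lost its call (adjusted p = 0.0739). The later fall of Nkx6-1 lost its call without v2 E17.5 (adjusted p = 0.166), and the earlier with a gate on marker UMIs in single cells (adjusted p = 0.114). Mesenchymal cells held 3.87 CPM of Nkx6-1 in v2 E14.5 and 0.911 CPM in v2 E17.5.

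In acinar-like cells Nkx6-1 went from 71.1 CPM (v1) and 103 CPM (v2) at E12.5 to 31.8 CPM, 46.1 CPM and 13.0 CPM at E14.5 and to 11.8 CPM, from 1 UMI, and 5.02 CPM at E17.5. It fell by 1.96 ± 0.38 (adjusted p = 4.77e-04) and then by 1.57 ± 0.50 (adjusted p = 0.0199). Mnx1 went from 21.5 CPM and 11.7 CPM at E12.5 to 3.53 CPM, 0 and 0.417 CPM at E14.5, and fell by 3.92 ± 0.67 (adjusted p = 9.70e-05). The Fev-Cre library at E14.5 had 58.6 CPM of Nkx6-1 and 5.79 CPM of Mnx1, and with it added neither fall from E12.5 passed (adjusted p = 0.146 and 0.124). Pdx1 was 138 CPM and 185 CPM at E12.5 and 97.8 CPM, 97.6 CPM and 79.5 CPM at E14.5, a change of -0.76 ± 0.31 that did not pass (adjusted p = 0.172). At E17.5 it was 25.2 CPM in v2, and no UMI was found among 112752 in the 32 cells of v1, where 3 counts would be 26.6 CPM of all UMIs, beside 19.0 CPM on that scale in v2. It fell by 1.75 ± 0.39 from E14.5 (adjusted p = 0.00123), and by 1.66 in v2 alone. Without v2 E17.5 the fitted fall was 12.04 ± 2.82 (adjusted p = 0.0393), and v1 E17.5, then the only library of its stage, holds 0 UMIs, so that this size cannot be read. In these comparisons 4.87% and 20.4% of 10634 genes were called. Without v2 E12.5 neither Nkx6-1 (adjusted p = 0.792, then 0.0982) nor Mnx1 (adjusted p = 0.164) was called. Nkx6-1 also lost its first call without v2 E14.5 (adjusted p = 0.265) and its second without v1 E12.5 (adjusted p = 0.0541) or v2 E17.5 (adjusted p = 0.680), and the second was a fall of 2.80 without v2 E14.5. With the per-cell gate neither fall of Nkx6-1 was called (adjusted p = 0.345 and 0.0596), nor the second with DESeq2 (adjusted p = 0.101). The v2 E12.5 class leans on the cluster name noted above, and mesenchymal cells of that library held 21.6 CPM of Pdx1 and 19.9 CPM of Nkx6-1.

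In Ngn3+-like cells Pdx1 stayed between 68.4 CPM and 123 CPM in the Swiss Webster libraries, and neither interval was called (-0.01 ± 0.30, adjusted p = 1.00, and -0.11 ± 0.30, adjusted p = 0.931). Nkx6-1 was 404 CPM, then 477 CPM and 481 CPM, then 410 CPM in v1. In v2 it was 423 CPM, 236 CPM and 206 CPM, so the kits went different ways from E12.5 to E14.5 and both fell slightly after it (log2 ratios of -0.22 in v1 and -0.19 in v2), and neither interval was called (-0.44 ± 0.29, adjusted p = 0.614, and -0.23 ± 0.30, adjusted p = 0.812). Of 4595 genes 0.609% and 0.675% were called. Different clusters held most of the v2 Ngn3+-like cells at each stage, cluster 13 at E12.5, clusters 8 and 12 at E14.5 and cluster 5 at E17.5. A fit over both classes, added after these results were seen, tested whether ductal-like and Ngn3+-like cells changed unequally. From E12.5 to E14.5 Pdx1 fell in ductal-like cells, while in Ngn3+-like cells its log2 ratio was -0.28 in v1 and 0.24 in v2. The term, Ngn3+-like minus ductal-like, was 1.37 ± 0.30 (adjusted p = 0.00168), where 0.840% of 9648 genes were called. From E14.5 to E17.5 Nkx6-1 fell less in Ngn3+-like than in ductal-like cells, with a term of 1.04 ± 0.24 (adjusted p = 0.00162), where 1.58% were called. Neither passed with DESeq2 (adjusted p = 0.610 and 0.143). The first was also lost with the per-cell gate (0.85, adjusted p = 0.376), at double resolution (0.85, adjusted p = 0.4659) and without v2 E12.5 (adjusted p = 0.814) or v2 E14.5 (adjusted p = 0.244), and the second without the first v1 E14.5 batch (adjusted p = 0.0507) or v2 E17.5 (adjusted p = 0.450).

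**Figure D5:**
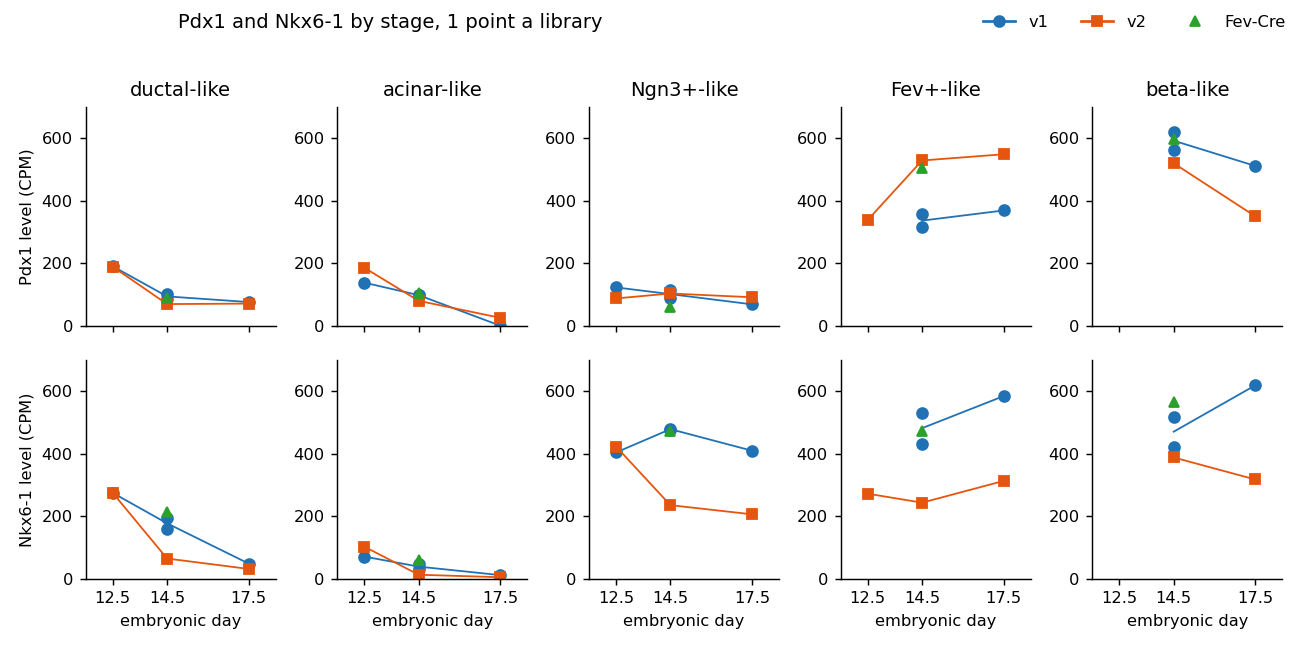
Level of Pdx1 and Nkx6-1 (CPM) by embryonic day in 5 classes, 1 point a library, lines through the means of each kit, Fev-Cre as a triangle. In ductal-like and acinar-like cells both kits are lower at E17.5 than at E12.5, and in Fev+-like cells Nkx6-1 is higher at E17.5 than at E14.5 in both kits, while in beta-like cells the kits go different ways for it.

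In Fev+-like cells the 6 libraries gave no call for any member in either interval, where 0.471% and 0.484% of 7434 genes were called. The changes from E14.5 to E17.5 were 0.07 ± 0.31 for Pdx1, 0.29 ± 0.29 for Nkx6-1 and -0.81 ± 0.49 for Mnx1 (adjusted p = 0.991, 0.946 and 0.831). For Mnx1 the log2 ratio was -2.61 in v1, where E17.5 held 2 UMIs, and -0.13 in v2, and without v2 E17.5 the change was -2.55 (adjusted p = 0.258). Cluster 1 held most v2 Fev+-like cells at E12.5 and E14.5 and cluster 6 all of them at E17.5. Nkx6-1 was 432 CPM to 585 CPM in v1 and 244 CPM to 313 CPM in v2, but 473 CPM in the Fev-Cre library, also v2, while Pdx1 was 316 CPM to 369 CPM in v1 and 338 CPM to 549 CPM in v2. The kits also differed in sorting, depth and aligner release. In beta-like cells, from E14.5 to E17.5, Pdx1 went from 564 CPM and 621 CPM to 511 CPM in v1 and from 520 CPM to 350 CPM in v2, a change of -0.25 ± 0.25 (adjusted p = 0.836). Nkx6-1 went from 519 CPM and 423 CPM to 619 CPM in v1 and from 388 CPM to 318 CPM in v2, a change of 0.21 ± 0.26 (adjusted p = 0.870). Mnx1 differed by -0.01 ± 0.45 (adjusted p = 0.997). Slc30a8 was the 1 listed gene called there, higher by 2.36 ± 0.28 at E17.5 (adjusted p = 0.00107), and 0.567% of 3526 genes were called. Cluster 17 held most beta-like cells of v2 E14.5 and clusters 2 and 10 those of v2 E17.5. In alpha-like cells neither Pdx1 (0.57 ± 0.30 and -0.82 ± 0.33, adjusted p = 0.347 and 0.362) nor Nkx6-1 (-0.34 ± 0.31 and -0.36 ± 0.35, adjusted p = 0.614 and 0.759) was called, where 3.13% and 0.603% of 5972 genes were. Most v2 alpha-like cells lay in cluster 11 at E12.5, cluster 9 at E14.5 and cluster 0 at E17.5.

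Genes most like each member were sought over 52 points, 1 for each class and library, with library means removed, among 5905 genes outside the markers. The points share libraries, so the correlations are descriptions. The nearest to Pdx1 were Arc (r = 0.82), a gene of synaptic plasticity, Vapb (r = 0.82), a tether of the endoplasmic reticulum, and Dtnbos (r = 0.75). The nearest to Nkx6-1 were the chromatin remodeller Chd7 (r = 0.81), the DNA demethylase Tet3 (r = 0.80) and the kinase Sbk1 (r = 0.78). The nearest to Mnx1 were Amigo2 (r = 0.77), the mitochondrial enzyme Gpd2 (r = 0.75) and the ectonucleotidase Entpd3 (r = 0.71). The members themselves were less alike, with r = 0.67 for Pdx1 and Mnx1, 0.60 for Pdx1 and Nkx6-1 and 0.51 for Nkx6-1 and Mnx1. Mafa had too few UMIs for a likeness to be read.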

How the data were processed

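Single-cell mRNA of fetal mouse pancreas was counted by the authors with Cell Ranger (1.1 for v1, 2.1 for v2 and Fev-Cre), which aligns with STAR to mm10; the deposited matrices hold raw UMI counts per gene and barcode. Of the Fev-Cre library the alignment with reporter sequences was used, and the other alignment of the same cells was not used here.

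Barcodes with 200 or more genes were kept, cells with 30% or more of the usual marker share of 2 compartments that exclude each other were removed as doublets (0.368% to 8.08% a library), which leaves doublets of 2 epithelial cells in place, epithelial cells with over 25% haemoglobin UMIs were removed, and cells were clustered by data set (leidenalg 0.10.2, resolution 1, 2000 variable genes, 20 components). Clusters were named from marker lists. Counts were summed per library and class where it held 20 or more cells. Classes were compared with edgeR 4.0.16 (quasi-likelihood, TMM, filterByExpr, library as block, Benjamini-Hochberg over all genes tested), and stages with kit as a term. Values paired by library deviated together (correlations of 0.305 to 0.906). The highest correlation of unmatched libraries ran from -0.169 in epsilon against alpha to 0.522 in ductal against acinar, where the lowest matched one was 0.401. Each pool is 1 library, so p-values rest on the spread between libraries. In the edgeR fits the spread of a gene was estimated with that of the other genes, on 2 to 7 residual degrees of freedom. Shares used cells thinned to 2000 (v1) or 3000 UMIs, leaving out shallower ones. Intervals (95%, exact) and floors (3 counts) cover counting error only. Tests over few libraries were exact two-sided sign-flip permutations.

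The named genes were the members, the genes of 2 lists (20 islet factors, 8 beta cell function genes) as counts, with values for those called in the beta comparisons, and the 3 genes most like each member. The results of 1 listed gene, and of its pairs with members among the 10 pairs tested, are not reported here. Members and lists were chosen with earlier results of these data known. On simulated counts for beta against Fev+ (8311 genes), 25% of 2-fold and 86% of 4-fold changes were recovered, and for ductal cells at E17.5 against E14.5 (8995 genes) 5% and 67%, with 3.48% and 6.49% of calls false. Alternatives were DESeq2 1.42.0, no filter, no block, a per-cell gate, double resolution, no doublet removal, other totals and leaving out each library. R 4.3.3, Python 3.11.15 and scipy 1.17.1 were used.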

Additional observations from a re-analysis of the deposited data

Results flagged for a closer look

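Within-group extremes were sought in 21 groups of 4 to 8 libraries, where chance marks about 1 in 20. Mnx1 in ductal-like cells was 5.76 CPM in the Fev-Cre library, from 26 UMIs, against 2.58 CPM in v2 E12.5, from 22 UMIs, and at most 0.160 CPM in the other 6. Mnx1 in delta-like cells was 9.46 CPM in the Fev-Cre library, from 3 UMIs, against at most 0.830 CPM in the other 3.

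Stage differences that were unequal between Ngn3+-like and ductal-like cells stood out in a fit added after the data were seen. From E12.5 to E14.5 the term was 1.37 ± 0.30 for Pdx1 and 0.99 ± 0.23 for Nkx6-1, the latter with adjusted p = 0.00366 and short of 2-fold. From E14.5 to E17.5 it was 1.04 ± 0.24 for Nkx6-1.

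Mnx1 was 118 CPM (exact 95% interval 94.6 to 146) in v1 cluster 2, whose 188 cells carried endocrine genes and met no class name. Mesenchymal cells of the same kit had 0.134 CPM, beta-like cells of v1 had 53.6 CPM (32.3 to 83.7), and Fev+-like cells of v1 had 84.3 CPM (63.9 to 109), an interval that overlaps that of the cluster. The differences between these were not tested.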

How the results depend on the processing

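Of 774 alternative values for 72 results, 692 counted as kept, and 34 results were kept under every alternative tried. A difference counted as kept where its direction and its side of the threshold stayed. A share of cells counted as kept where it lay within the SD over libraries of its main value. Removing the replicate block by library changed no call between classes of a member that still passed the filter (Pdx1 in Fev+ against Ngn3+ gave 2.14, Mnx1 3.70). Mnx1 has no value without the block in ductal against acinar, Ngn3+ against ductal, beta against alpha and delta against beta, where it did not pass the filter, and the genes called fell to 1190 from 2065 in ductal against acinar, 1916 from 3185 in Ngn3+ against ductal, 923 from 1764 in Fev+ against Ngn3+, 466 from 739 in beta against Fev+, 343 from 775 in alpha against Fev+, 425 from 799 in beta against alpha, 294 from 747 in delta against beta and 7 from 190 in epsilon against alpha. Over all settings the stage counts ran from 96 to 859 and 166 to 3316 in acinar, 6 to 427 and 92 to 726 in ductal, 0 to 124 and 3 to 180 in Ngn3+, 0 to 107 and 0 to 100 in Fev+, 22 to 356 and 1 to 127 in alpha, and 0 to 108 in beta cells. The cause of each change below was not tested.

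On the log2 scale, DESeq2 gave 0.074 for Pdx1 in ductal against acinar, -1.55 for Nkx6-1 in acinar cells from E14.5 to E17.5 (lost) and 0.064 for Mnx1 in beta cells. Double resolution gave 0.056 for Pdx1 in ductal against acinar and 0.18 for Mnx1 in beta against Fev+, and no doublet removal gave 0.13 for the latter. Double resolution and no doublet removal turned Pdx1 in Ngn3+ minus ductal from E14.5 to E17.5 to 0.22 and 0.073, and leaving out 1 library gave -0.95 to 0.050. No low-count filter gave 1.89 for Mnx1 in Ngn3+ against ductal (called) and 0.10 for Pdx1 in Ngn3+ cells from E12.5 to E14.5, and totals without hormone and enzyme genes gave 0.0084 for the latter. Without a kit term, acinar calls were lost from E12.5 to E14.5 (Nkx6-1 -1.76, Mnx1 -3.60) and from E14.5 to E17.5 (Pdx1 -1.58, Nkx6-1 -1.80), ductal calls were lost (Pdx1 -1.26, Nkx6-1 -1.15, then Nkx6-1 -1.57), and Fev+ cells gave 0.32 for Nkx6-1 and 0.63 for Mnx1 from E12.5 to E14.5. With the Fev-Cre library added, from E12.5 to E14.5 acinar cells gave -1.28 for Nkx6-1 and -2.41 for Mnx1, ductal cells -1.18 for Pdx1 and -0.89 for Nkx6-1 (all lost), and Fev+ cells 0.25 for Nkx6-1 and 0.85 for Mnx1. It gave 0.00077 for Pdx1 in Ngn3+ cells from E14.5 to E17.5. The per-cell gate lost Nkx6-1 in acinar (-1.21, then -1.88) and ductal cells (-1.30), and gave 0.019 in Ngn3+ cells and 0.34 for Mnx1 in beta cells from E14.5 to E17.5. A replicate block by batch gave 0.21 for Mnx1 in acinar and 0.036 for Pdx1 in ductal cells from E14.5 to E17.5.

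Leaving out 1 library at a time gave, between classes, -0.24 to 0.081 for Pdx1 and -2.55 to -1.57 for Mnx1 in ductal against acinar, -0.18 to 0.070 for Nkx6-1 in Fev+ against Ngn3+, -1.01 to -0.77 for Pdx1 in delta against beta and -1.28 to -0.41 for Nkx6-1 in epsilon against alpha. Over stages it gave, for acinar cells, -2.80 to -0.94 for Nkx6-1 and -4.76 to -3.01 for Mnx1, then -2.80 to -1.15 and -6.50 to 0.21. Ductal cells gave -1.35 to -1.10 for Pdx1 and -1.87 to -0.77 for Nkx6-1, then -0.17 to 0.019 and -1.91 to -1.27. Ngn3+ cells gave -0.34 to 0.25 for Pdx1 and -0.85 to 0.21 for Nkx6-1, Fev+ cells -0.73 to 1.75 for Mnx1, alpha cells -0.80 to 0.30 and -0.82 to 0.40 for Nkx6-1, and beta cells -0.16 to 0.52 for Nkx6-1. Beta cells could not be fitted from E12.5 to E14.5. Differences in detection in beta cells ran from -4.63 to 0.0012 for Pdx1 and Nkx6-1 and from -1.10 to 2.84 points for Pdx1 and Mnx1. Nkx6-1 over insulin terciles ran from -0.10 to 0.026. Another thinning seed gave 8.33 points for Pdx1 and Nkx6-1 and 0.056 for Pdx1 and Mafa in beta cells.

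Depth set the shares: without thinning Pdx1 was in 29.9% of Ngn3+ and 90.5% of beta cells, Nkx6-1 in 72.0% of Ngn3+, 71.4% of Fev+ and 85.1% of beta cells, and Mnx1 in 1.65% of Ngn3+ and 19.97% of beta cells. At 1000 UMIs Pdx1 was in 7.78%, 31.4% and 34.6% and Nkx6-1 in 29.0%, 31.2% and 28.2% of Ngn3+, Fev+ and beta cells.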

Other observations

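Clusters split from the endocrine cells that met no class name carried the members at unequal levels. Not all of them led with an endocrine marker set. In v1 cluster 2 the pooled level was 649 CPM for Pdx1 (exact 95% interval 592 to 710) and 509 CPM for Nkx6-1 (458 to 563), beside 556 CPM and 539 CPM in the beta-like cells of that kit. In the Fev+-like cells of v1 the levels were 337 CPM (295 to 384) and 491 CPM (440 to 547). In v1 cluster 5, of 68 cells, the leading marker set was ductal and the next acinar, and Pdx1 was 143 CPM and Nkx6-1 282 CPM. In the Fev-Cre library Mnx1 was 41.9 CPM in cluster 4, of 217 cells, and 88.6 CPM in cluster 8, of 121 cells, beside 102 CPM in its beta-like cells. It was 14.9 CPM in cluster 3, the largest of them with 406 cells, where Pdx1 was 136 CPM and Nkx6-1 215 CPM. Mnx1 was 12.9 CPM in cluster 9, whose leading marker set was acinar. In the unnamed v2 clusters, some of them led by the acinar, ductal or mesenchymal set, Mnx1 ran from 0 to 8.85 CPM. These intervals cover counting error only.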
